A study of Homo sapiens with 7 samples.

Results

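Ferritin and the genes around it that bring iron into a cell, sense it and release it from storage were followed in 7 RNA libraries of UM-UC-3, an established human line from a bladder (urothelial) carcinoma. The genes were chosen by symbol, with earlier results of these data known: the ferritin subunits FTH1 and FTL, the ferritin receptor for autophagy NCOA4, the iron regulatory proteins ACO1 and IREB2, and TFRC, STEAP3, SLC11A2 and SLC40A1, which handle uptake and export. Of these 9 genes, 8 were among the 13872 genes of the deposited table and all 8 passed the filter on low values, as did 12705 genes in all. The expression of SLC40A1, the iron exporter ferroportin, was not analysed here. The 8 genes lie on 8 different chromosomes: FTL on 19, FTH1 on 11, TFRC on 3, NCOA4 on 10, IREB2 on 15, ACO1 on 9, SLC11A2 on 12 and STEAP3 on 2.

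The libraries came from clones of the line sorted by ALDEFLUOR, an assay in which cells fluoresce in proportion to aldehyde dehydrogenase (ALDH) activity. The ALDH-high group held clones 1, 6 and 10, used in the study as cancer stem-like cells. Clones 1, 3 and 8 made up the ALDH-low group, used as cells that are not stem-like, and 1 wild-type culture served as the control. Only the clone and its ALDH class set the groups apart in the labels, and the growth protocol names DMEM with fetal bovine serum for the ALDH-high clones. Each clone gave 1 library and all came from 1 line, so n = 3 counts clones, p-values measure the spread between these clones, and nothing repeats the wild-type library.

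Values are CPM, read counts scaled to library size by the authors. A change is the ALDH-high mean less the ALDH-low mean, both of log2(CPM + 1). A gene is said to have fallen where limma gave an adjusted p below 0.05 over all 12705 genes, which held for 0.693% of them downward and 0.645% upward. The smallest non-zero value was 0.04 CPM in every library. In 4 libraries (ALDH-high clone 10, ALDH-low clones 1 and 8 and wild type) all values under 1 CPM were multiples of it, which is taken here as about 1 read. At that rate the lowest value of the 8 genes in these libraries, 7.28 CPM for IREB2 in ALDH-low clone 1, stood for about 182 reads, with a counting error of 7.41%. In the other 3 libraries not all of these values were such multiples, and no read numbers are given. In RNA from whole cultures, fewer cells expressing a gene and less RNA per cell cannot be told apart. ALDH1A1, which encodes an enzyme with the sorted activity, stood at 33.37 to 96.32 CPM in ALDH-high clones, at 0 to 0.08 CPM in ALDH-low clones and at 37.85 CPM in wild type. Of 16 urothelial and epithelial markers 5 were listed. KRT8 and KRT18 were at 56.16 CPM or more in every library, while FOXA1 stayed at 1.96 CPM or less. Over the 7 libraries KRT7 was at 1.48 to 7.19 CPM and PPARG at 0.24 to 7.94 CPM. GATA3, KRT5, KRT19, KRT20, EPCAM, CDH1, TP63 and the uroplakins had no values here. Of 10 erythroid markers only HBG2 and EPOR were listed (summed level 3.53 to 36.4 CPM in ALDH-high and 2.72 to 26.7 CPM in ALDH-low clones), of 8 leukocyte markers only CD68 (84.3 to 131 CPM in ALDH-high and 64.4 to 92.9 CPM in ALDH-low clones), and of 4 endothelial and 5 fibroblast markers 0.

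Ferritin is a hollow protein shell built from heavy chains (FTH1), which oxidise iron so that it can enter, and light chains (FTL), which help it form a mineral core. NCOA4 carries ferritin to lysosomes, where the iron is set free. Iron also controls the messengers: when iron is scarce, the regulatory proteins IRP1 (from ACO1) and IRP2 (from IREB2) bind a hairpin called the iron-responsive element. Bound in the 5′ UTR of ferritin mRNA they block its translation, and bound in the 3′ UTR of TFRC mRNA they protect it from decay. ACO1 is an aconitase when it holds an iron-sulfur cluster and binds RNA when it does not.

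The hairpins of the ferritin and TFRC messengers could be read directly from the GENCODE release 29 transcripts (GRCh38). The search was for C, 5 bases, the loop CAGTGN and 5 bases that pair with the first 5, with G and T pairs allowed. Such a match was found in 1.48% of 19702 protein-coding genes. Each is shown here in 29 bases as DNA on the strand of the transcript, with the 6 loop bases in capitals, because it is the shared feature by which IRP1 and IRP2 are known to recognise these messengers.
FTH1, 5′ UTR, chr11:61967574-61967602, minus strand: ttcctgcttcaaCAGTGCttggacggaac
FTL, 5′ UTR, chr19:48965335-48965363, plus strand: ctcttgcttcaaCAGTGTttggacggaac
TFRC, 3′ UTR, chr3:196050979-196051007, minus strand: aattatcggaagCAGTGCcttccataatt
TFRC, 3′ UTR, chr3:196050463-196050491, minus strand: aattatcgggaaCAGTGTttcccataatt

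TFRC held 4 matches, all in its 3′ UTR, of which the first and the last along the transcript are printed. SLC40A1 held 1 match in its 5′ UTR. NCOA4, ACO1, IREB2, STEAP3 and SLC11A2 held 0, which says only that no stretch of the coding transcripts searched met this pattern. All 5 pairs were required, so a hairpin with a mismatch or an extra base in that stem was not counted. A count of 0 therefore does not say that a messenger lacks an iron-responsive element, and TFRC may hold more than were counted. Over the 29 bases shown, the FTH1 and FTL hairpins were identical at 26 positions.

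Of the storage genes FTL passed the test, and FTH1 and NCOA4 had the same sign without passing. FTL (ENSG00000087086) stood at 561.05, 508.64 and 421.76 CPM in the ALDH-high clones 1, 6 and 10 and at 891.32, 1265.88 and 964.92 CPM in ALDH-low clones 1, 3 and 8. Every ALDH-high clone lay below every ALDH-low clone. FTL fell from 1041 ± 198 to 497 ± 70.4 CPM (SD, n = 3 clones each), a change of -1.06 log2 units (SE 0.188, limma adjusted p = 0.0427). It is a narrow pass: with any single clone other than ALDH-high clone 1 left out, the adjusted p lay between 0.0758 and 0.168, although the change stayed between -0.91 and -1.16.

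FTH1 (ENSG00000167996) stood at 302.32, 326.25 and 260.4 CPM in the ALDH-high clones 1, 6 and 10 and at 490.32, 1003.87 and 889.12 CPM in ALDH-low clones 1, 3 and 8. The groups did not overlap, and ALDH-low clone 1 lay well below the other two ALDH-low clones. The means were 296 ± 33.3 and 794 ± 270 CPM, a difference of -1.36 log2 units (SE 0.265), larger than that of FTL, but with an adjusted p of 0.0553 by limma it did not pass. The spread within ALDH-low clones was 2.05-fold from lowest to highest, against 1.25-fold within ALDH-high clones. Without ALDH-low clone 1, the ALDH-low clone nearest the ALDH-high clones, the difference was -1.68 log2 units and passed (limma adjusted p = 0.0245). It also passed with median-ratio scaling (0.0493) and library weights (0.0224), and under no other of the 17 alternatives. With any other single clone left out, the limma adjusted p lay between 0.0762 and 0.186.

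NCOA4 (ENSG00000138293), the receptor that delivers ferritin for breakdown, stood at 87.06, 84.96 and 75.04 CPM in the ALDH-high clones 1, 6 and 10. In ALDH-low clones 1, 3 and 8 it stood at 104.44, 142.28 and 119.68 CPM. The groups did not overlap here either, and ALDH-low clone 3 was the highest library for NCOA4, FTH1 and FTL alike. The difference of -0.55 log2 units (SE 0.158) did not pass by limma (adjusted p = 0.119).

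The table also listed 2 ferritin pseudogenes, FTLP3 and FTH1P12, whose sequences resemble the parent genes closely enough that reads may be shared between them. The sources used here do not say how such reads were assigned. FTLP3 averaged 3.68 ± 1.55 CPM over ALDH-high and 9.91 ± 1.05 CPM over ALDH-low clones, and FTH1P12 averaged 1.05 ± 0.156 and 2.78 ± 1.19 CPM. Neither passed (limma adjusted p = 0.0648 and 0.156). None of the 8 genes shared all 7 values with another gene (0 of 8).

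**Figure D1:**
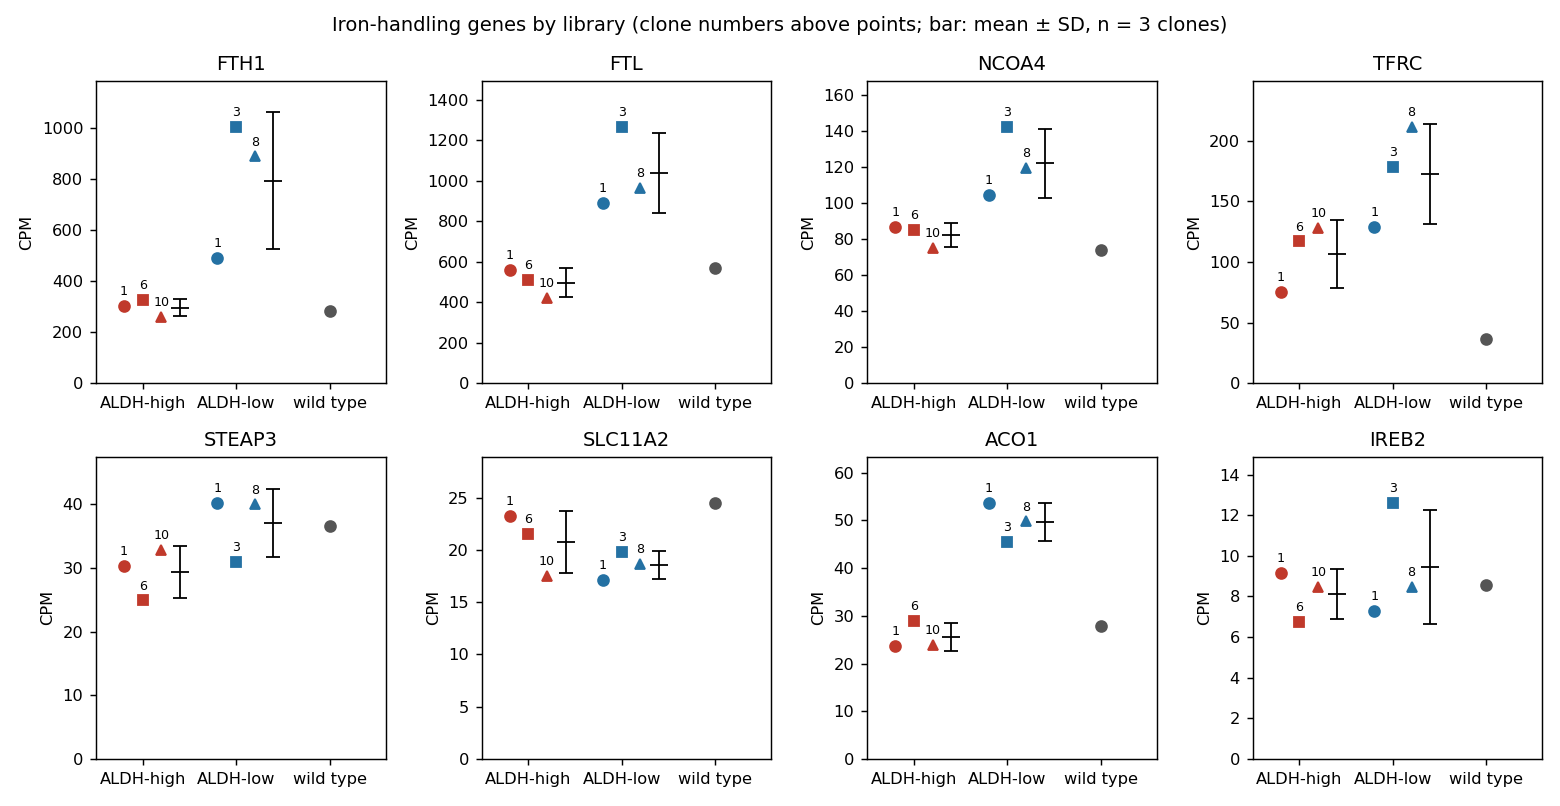
CPM of the 8 genes in each library, with ALDH-high clones in red, ALDH-low clones in blue, wild type in grey, the clone number above each point and the mean ± SD of 3 clones beside them. For FTH1, FTL, NCOA4, TFRC and ACO1 each red point lies below each blue point; the wild type lies near the red points for FTH1 (282.92 CPM), FTL (569.52 CPM) and ACO1 (27.82 CPM) and below all clones for TFRC (36.37 CPM).

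Of the sensors, ACO1 changed and IREB2 did not pass. ACO1 (ENSG00000122729) stood at 23.72, 28.93 and 23.92 CPM in the ALDH-high clones 1, 6 and 10 and at 53.68, 45.53 and 49.8 CPM in ALDH-low clones 1, 3 and 8. The groups were far apart relative to their spread, with the highest ALDH-high clone well below the lowest ALDH-low clone. ACO1 fell from 49.7 ± 4.08 to 25.5 ± 2.95 CPM (n = 3 clones each), by 0.94 log2 units (SE 0.156, limma adjusted p = 0.0377). With any single clone left out it no longer passed (limma adjusted p from 0.0519 to 0.155), while the change stayed between -0.88 and -1.03.

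IREB2 (ENSG00000136381), which encodes the regulatory protein that is degraded when iron is plentiful, stood at 9.14, 6.73 and 8.48 CPM in the ALDH-high clones 1, 6 and 10. In ALDH-low clones 1, 3 and 8 it stood at 7.28, 12.61 and 8.48 CPM. The groups overlapped, and only ALDH-low clone 3 lay above the ALDH-high range. The difference was -0.17 log2 units with an interval of -0.73 to 0.38 (95%, limma adjusted p = 0.732), and it turned to 0.03 without ALDH-low clone 3. The interval does not reach the change of -1.06 log2 units found for FTL.

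Of the uptake genes none passed. TFRC (ENSG00000072274), the receptor that takes up iron-loaded transferrin, stood at 74.98, 116.85 and 128.04 CPM in the ALDH-high clones 1, 6 and 10 and at 129.16, 178.3 and 211.12 CPM in ALDH-low clones 1, 3 and 8. The groups did not overlap, but ALDH-high clone 10 and ALDH-low clone 1 were nearly equal. The difference of -0.70 log2 units (SE 0.251) had a limma adjusted p of 0.185. Its sign was that of the ferritin genes. The proliferation marker MKI67 had its 2 lowest values in the same libraries as TFRC, at 71.1 CPM in wild type and 101.09 CPM in ALDH-high clone 1 against 167.11 to 281.52 CPM elsewhere. All 5 proliferation markers fixed for this check were listed, and their summed level was 721 CPM in wild type, 1117 to 1309 CPM in ALDH-high and 938 to 1159 CPM in ALDH-low clones. By this sum wild type was again lowest, but ALDH-high clone 1 lay above the lowest ALDH-low clone, unlike in MKI67 and TFRC. The part of these markers in the TFRC values was not tested.

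STEAP3 (ENSG00000115107), a reductase that converts iron inside the endosome before it is moved to the cytosol, stood at 30.32, 24.87 and 32.84 CPM in the ALDH-high clones 1, 6 and 10. In ALDH-low clones 1, 3 and 8 it stood at 40.2, 30.95 and 39.96 CPM. The groups overlapped through ALDH-low clone 3, and the difference was -0.33 log2 units (interval -0.74 to 0.09, limma adjusted p = 0.361). SLC11A2 (ENSG00000110911), the transporter DMT1 that carries iron out of the endosome, stood at 23.25, 21.51 and 17.48 CPM in the ALDH-high clones 1, 6 and 10 and at 17.16, 19.8 and 18.68 CPM in ALDH-low clones 1, 3 and 8. It was the steadiest of the 8 genes, with 1.35-fold between the lowest and the highest clone, and the only one with a higher mean in ALDH-high clones. Its difference of 0.15 log2 units had an interval of -0.26 to 0.55 (limma adjusted p = 0.683).

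**Figure D2:**
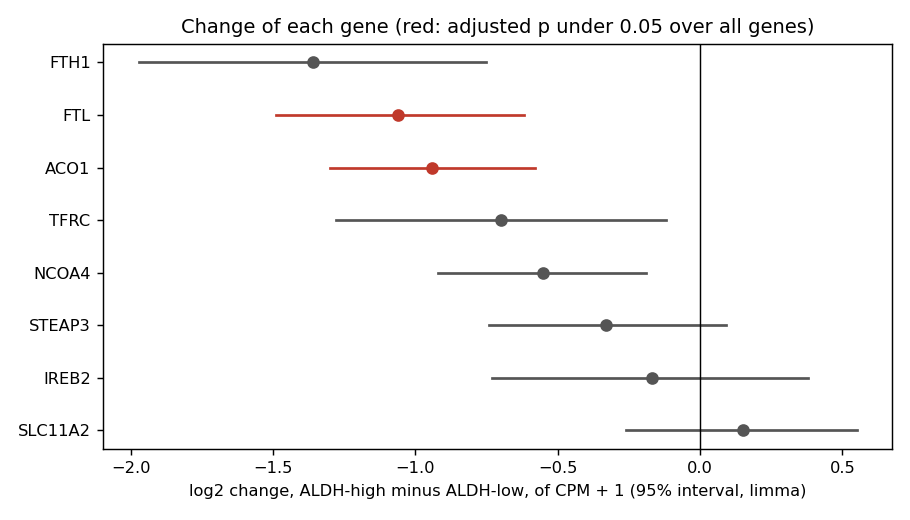
Change of each gene (log2 of CPM + 1, ALDH-high minus ALDH-low, horizontal axis) with its 95% interval from limma, not adjusted for the number of genes. FTL and ACO1, in red, had an adjusted p below 0.05; the intervals of FTH1, TFRC and NCOA4 also lie below 0, and those of STEAP3, IREB2 and SLC11A2 include 0.

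Counted together, 2 of the 8 genes fell (0.693% of all genes did), 0 rose (0.645% of all genes did) and 6 did not pass. An unadjusted p under 0.05 was found for 5 of the 8 (19.7% of all genes). In 5 of the 8 the groups did not overlap with ALDH-high lower, a state found in 12.1% of all genes tested. The mean was lower in ALDH-high clones in 7 of the 8 genes, against 49.6% of all genes. The median difference of the 8 genes was -0.63 log2 units and that of all genes 0. Because of how the genes were chosen, these counts are a description.

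The wild-type culture lay near the ALDH-high clones in storage genes and in ACO1. It had 569.52 CPM of FTL, 282.92 of FTH1, 74.26 of NCOA4 and 27.82 of ACO1, so its distance from the ALDH-low mean was -1.42 to -0.70 log2 units in these 4 genes and that from the ALDH-high mean -0.14 to 0.21. It was nearer to the ALDH-high than to the ALDH-low mean in 7 of the 8 genes, STEAP3 being the exception at 36.61 CPM. For IREB2 the 2 distances were nearly equal, at 0.08 log2 units from the ALDH-high mean and -0.1 from the ALDH-low mean. Across all tested genes the wild type was nearer the ALDH-high mean in 56.8%. Among genes whose groups did not overlap, with ALDH-high lower, the share was 62.9%. NCOA4 was below all 6 clones by a narrow margin, and SLC11A2, at 24.5 CPM, was above all of them. TFRC differed more: at 36.37 CPM the wild type lay at -1.49 log2 units from the ALDH-high mean and at -2.19 from the ALDH-low mean. With 1 wild-type library there is no test, and 25.4% of all genes were also lowest in it.

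Within a library, the balance of TFRC to ferritin gives a single value for each library. For TFRC over FTH1 the log2 ratio was -2, -1.47 and -1.02 in ALDH-high clones 1, 6 and 10 and -1.92, -2.49 and -2.07 in ALDH-low clones 1, 3 and 8. The groups overlapped because ALDH-high clone 1 lay among the ALDH-low clones. The means differed by 0.66 log2 units (two-sided exact permutation p = 0.2, n = 3 clones each, where the smallest p possible is 0.1). TFRC over FTL differed by 0.36 (exact permutation p = 0.5) and FTH1 over FTL by -0.30 (exact permutation p = 0.3). The 3 ratios were one family, and none can pass 0.05 in a design of this size, before any adjustment. These ratios compare libraries and say nothing of which of the genes has more transcripts. The type of library, and with it any effect of transcript length on CPM, is not given here.

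The log2 ratio of FTH1 to FTL RNA was not the same in the ALDH-low clones, each measured in 1 library. It was -0.86 in ALDH-low clone 1, in the range of the ALDH-high clones (-0.89 to -0.64), and -0.33 and -0.12 in clones 3 and 8. The wild type had the lowest value of all 3 ratios: -2.93 for TFRC over FTH1, -3.93 for TFRC over FTL and -1.01 for FTH1 over FTL.

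**Figure D3:**
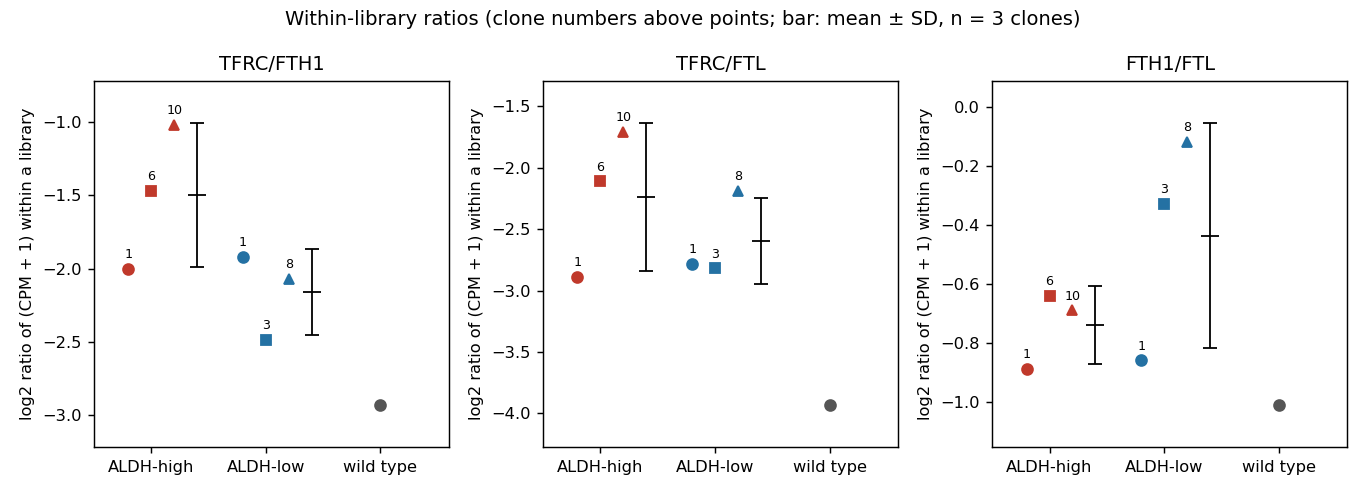
Log2 ratios of CPM + 1 within each library (vertical axis) for TFRC over FTH1, TFRC over FTL and FTH1 over FTL, with clone numbers above the points and mean ± SD of 3 clones beside them. The ALDH-high and ALDH-low points overlap in each panel and the wild type lies below all clones.

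The genes whose levels followed ferritin most closely over the 7 libraries were ranked by Pearson's r of log2(CPM + 1) among 8600 genes. Closest to FTH1 were MED15, a Mediator subunit (r = 0.989), MRPL50, a mitochondrial ribosomal protein gene (0.976), and SDHAF2, an assembly factor of succinate dehydrogenase (0.974). NCOA4 ranked 5 for FTH1 (r = 0.974) and FTL ranked 26 (0.947). Closest to FTL were UBE2E3, a ubiquitin-conjugating enzyme gene (0.984), PRC1, a cytokinesis gene (0.983), and BIVM (0.974). Among the genes closest to TFRC were RC3H1, which encodes the mRNA decay factor Roquin-1 (0.985), and PEX26, a peroxisome import gene (0.983). TFRC itself ranked 726 for FTH1 (r = 0.712). These values describe 7 libraries of 2 sorted groups and 1 culture, and a gene that separates the groups the same way scores high.

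The wider iron system was read from 7 lists of 126 symbols, of which 101 were in the table and 97 were tested. Of these, BOLA2 and BOLA2B had the same value in all 7 libraries and are counted once, which leaves 96. None of the 96 passed (0 by limma), where 1.34% of all genes tested did. An unadjusted p under 0.05 was found for 20 of the 96 (20.8%, against 19.7% of all genes tested). The median change of the 96 was -0.05 log2 units. The members below are those with the smallest unadjusted p in each list, and all are given as levels.

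Of 14 genes of uptake, reduction and export, 8 had a higher and 6 a lower mean in ALDH-high clones. CYBRD1, a ferric reductase of the plasma membrane, was at 2.94, 4.97 and 2.04 CPM in the ALDH-high clones 1, 6 and 10 and at 9.08, 10.68 and 8.64 CPM in ALDH-low clones 1, 3 and 8. The groups did not overlap, with a difference of -1.33 log2 units close to that of FTH1 in size (limma adjusted p = 0.0636). STEAP1, a relative of STEAP3, had the opposite sign at 106 ± 15.9 against 61.3 ± 21.1 CPM (adjusted p = 0.157). SLC39A14, an importer of iron not bound to transferrin, was at 55.4 ± 7.08 against 75 ± 5.64 CPM (adjusted p = 0.173).

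Of 11 genes of iron chaperoning, ferritin turnover and IRP control, with BOLA2 and BOLA2B as 1, 10 had a lower mean in ALDH-high clones, with a median of -0.26 log2 units. The smallest p were those of the autophagy genes ATG9A, at 14.2 ± 1.41 against 21 ± 3.01 CPM, and WIPI2, at 21.1 ± 2.78 against 29.5 ± 4.1 CPM. GLRX3, a glutaredoxin that hands on iron-sulfur clusters, was at 264 ± 24.8 against 321 ± 42.6 CPM. Their limma adjusted p lay between 0.168 and 0.356.

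In mitochondrial iron import and iron-sulfur assembly 17 of 24 means were higher in ALDH-high clones (median 0.14 log2 units). BOLA1 was at 998 ± 176 against 715 ± 98.6 CPM and NUBPL, a factor for complex I assembly, at 8.92 ± 0.557 against 6.07 ± 1.63 CPM. SLC25A37, the mitochondrial iron importer mitoferrin-1, had the opposite sign at 71.5 ± 9.58 against 98.4 ± 16.8 CPM. Of 9 cytosolic assembly genes 6 had a higher mean. FAM96A, known for its part in loading the cluster of IRP1, was at 133 ± 9.46 against 205 ± 58 CPM, with 271.52 CPM in ALDH-low clone 3. NUBP1, a scaffold, was at 33.9 ± 4.5 against 25.8 ± 0.362 CPM, and MMS19, which passes clusters on to DNA repair enzymes, at 41.2 ± 3.92 against 49.1 ± 9.22 CPM. The limma adjusted p of these 6 genes lay between 0.168 and 0.513.

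In haem metabolism 13 of 17 means were lower in ALDH-high clones, with a median of -0.11 log2 units. ALAS1, which encodes the first enzyme of haem synthesis, was at 36.5 ± 3.9 against 25.3 ± 6.89 CPM, and ALAD, the next enzyme, at 2.68 ± 1.03 against 4.36 ± 0.656 CPM. SLC46A1, a folate and haem transporter, was at 7.07 ± 1.44 against 4.3 ± 1.03 CPM. Limma gave these 3 adjusted p values from 0.204 to 0.278.

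Among 8 further mRNAs reported to carry an iron-responsive element, 5 means were lower and 3 higher in ALDH-high clones. HIF1A, a hypoxia-inducible factor, was at 66.8 ± 0.924 against 121 ± 43.5 CPM, where ALDH-low clone 1 alone had 171.4 CPM. CDC14A, a phosphatase gene, was at 8.56 ± 0.761 against 4.7 ± 1.34 CPM, and APP, the amyloid precursor gene, at 242 ± 26.5 against 324 ± 14.5 CPM. Of 13 genes of ferroptosis, the death of cells by iron-driven lipid peroxidation, 9 means were lower. AIFM2, which encodes the ferroptosis suppressor FSP1, was at 28.3 ± 11 against 63.7 ± 11 CPM, with groups that did not overlap (-1.19 log2 units, limma adjusted p = 0.0801). NFE2L2, the factor NRF2 that is known to switch on both ferritin genes, was at 34.8 ± 3.27 against 54.5 ± 14.5 CPM, and BACH1, known to repress them, at 18.2 ± 4.46 against 28.8 ± 1.64 CPM (adjusted p = 0.164 and 0.148).

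**Figure D4:**
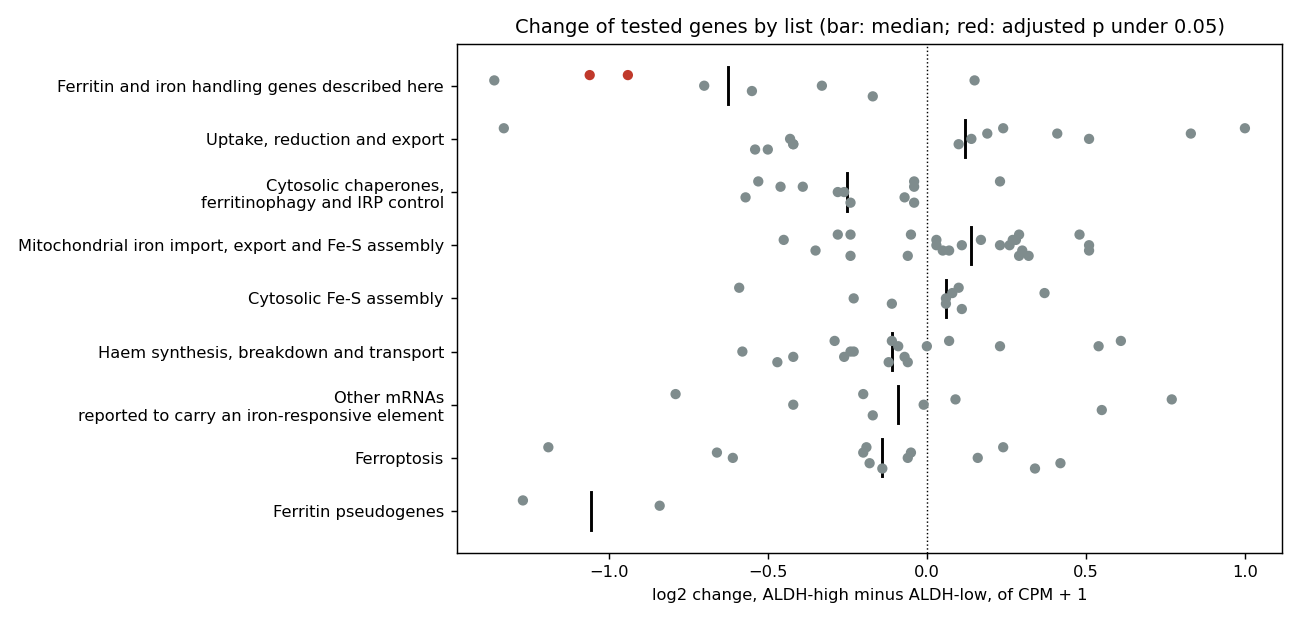
Change of each tested gene (log2 of CPM + 1, ALDH-high minus ALDH-low, horizontal axis) in the 8 genes described, the 7 wider iron lists and the 2 ferritin pseudogenes, with the median of each as a bar. The only red points, adjusted p below 0.05, are FTL and ACO1; the medians of the 7 wider lists lie between -0.25 and 0.14, with BOLA2 and BOLA2B drawn as separate points.

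The promoters of FTL and ACO1, the 2 genes that fell, are shown as the sequence before an annotated start site. Which start sites the clones used was not examined. The sequences are the 250 bases before the start site in RefSeq (GRCh38.p14), which held entries for all of the 9 genes but FTH1. On FTL the capitals mark the CCAAT box (CCAAT on either strand), and on ACO1 the GC box (GGGCGG on either strand).
FTL, chr19:48965059-48965308, plus strand: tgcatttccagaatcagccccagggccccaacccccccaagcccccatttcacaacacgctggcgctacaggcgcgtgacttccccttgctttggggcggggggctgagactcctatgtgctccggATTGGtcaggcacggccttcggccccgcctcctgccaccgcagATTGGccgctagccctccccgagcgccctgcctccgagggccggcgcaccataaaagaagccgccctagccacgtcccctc
ACO1, chr9:32384393-32384642, plus strand: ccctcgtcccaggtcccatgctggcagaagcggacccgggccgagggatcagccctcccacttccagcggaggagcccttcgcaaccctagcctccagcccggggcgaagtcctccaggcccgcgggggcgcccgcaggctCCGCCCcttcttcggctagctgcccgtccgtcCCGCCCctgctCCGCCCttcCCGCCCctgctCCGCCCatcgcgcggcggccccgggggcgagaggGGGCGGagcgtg

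FTL held 2 CCAAT boxes and 2 GC boxes, and ACO1 held 6 GC boxes and 0 CCAAT boxes. Of 35116 RefSeq windows of the same length, 32% held a CCAAT box and 42.6% a GC box, so either is common. The core of the antioxidant response element (TGACNNNGC, either strand), through which NRF2 is known to act, was in 10.9% of windows and in 0 of those of the 8 genes with an entry, so nothing is said here of FTH1. Enhancers outside the 250 bases were not searched.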

How the data were processed

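The authors deposited 1 table of CPM values (2 decimals) for 7 libraries, 1 column each, matched to samples by the descriptions in the column names. Columns summed to 967084.9 to 1019855.1 CPM. The submitters' processing notes name BWA (0.5.9) and, as builds, mm9 and hg19, with no role for either. The column names contain CAGEr, the name of an R package for tags from RNA 5′ ends. The type of library and the rule for assigning reads to genes are not given here. The values are CPM, and in 3 of the 7 columns whole reads could not be recovered at the tolerance required, so no count test was run.

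A gene was tested if 3 or more clone libraries had 1 CPM or more. The test was limma's (version 3.58.1, R 4.3.3; eBayes with trend, two-sided), applied to log2(CPM + 1) with Benjamini-Hochberg adjustment over all genes. The fit was tested on simulated data, drawn independently from normal distributions with each gene's mean and within-group SD. It found 36 of 100 genes changed by 1 log2 unit and 85 of 100 changed by 2, with 9 false calls. Ratios had exact permutation tests. Coordinates and hairpins are from GENCODE release 29 (GRCh38), promoters from RefSeq; none was set against hg19 positions, and NCOA4, whose identifier differs there, was matched by symbol. The text names all 9 members, in each list the 3 genes with the smallest unadjusted p, and the 3 genes closest to FTH1, FTL and TFRC, apart from a gene that is not reported here. The lists, like the members, were chosen with earlier results of these data known.

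The alternatives changed the pseudocount (0.1, 5), the filter (none, 5 CPM), the scaling (median-ratio, quantile), the variance model (no trend, robust) and the weights of libraries, added the wild type to the fit, or left out a clone. Added after the data were seen was a fit with pseudogene values summed into FTH1 and FTL.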

Additional observations from a re-analysis of the deposited data

How the results depend on the processing

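All 8 genes kept the sign of their difference under the 17 alternatives, except IREB2, which turned to 0.03 log2 units without ALDH-low clone 3. ACO1 kept its call under 11 alternatives and FTL under 9. FTL lost its call, with an unchanged difference of -1.06, without a filter, with a filter at 5 CPM and with eBayes without trend (limma adjusted p = 0.0515, 0.0534 and 0.0596). FTH1 gained one under 3 alternatives: median-ratio scaling (-1.38), library weights (-1.36, adjusted p = 0.0224) and leaving out ALDH-low clone 1. With each clone left out in turn, changes ranged from -1.16 to -0.91 for FTL, -1.03 to -0.88 for ACO1, -1.68 to -1.16 for FTH1 and -0.33 to 0.03 for IREB2. The 3 ratios kept their sign under the other pseudocounts and scalings and with each clone left out. Over all genes 170 passed, 86 with a filter at 5 CPM, 700 with library weights and 34 to 173 with a clone left out. TFRC, NCOA4, IREB2, SLC11A2 and STEAP3 passed under none of the alternatives run. With 3 clones a group, a gene that did not pass may still differ.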
